A study of Mus musculus with 6 samples.

Results

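Spliceosomal U snRNAs were examined in small RNA libraries of exosomes, the small vesicles that cells release, from cultured mouse skin cells. The members were the rows whose name begins with Rnu and a digit, leaving out names that begin Rnu3 or Rnu73, which are nucleolar RNAs, together with Gm22970 and Gm22126, which were added because they had many reads. This gave 13 of the 16310 RNAs listed, and 13 of the 1383 rows that GENCODE classes as snRNA. The member names cover U1, U2, U5, U6, U7, U11 and U12, and 2 members, Gm22970 and Gm22126, have no U type in their name. U7 acts in the processing of histone mRNA ends and not in splicing, so the set is wider than the spliceosome. No member is named for U4, U4atac or U6atac.

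The 3 ESC libraries came from epidermal stem cells, isolated from dorsal skin of C57BL/6 mice at 3 weeks of age in telogen, selected by rapid adhesion to collagen IV and grown in serum-free keratinocyte medium. The 3 Fb libraries came from dermal fibroblasts of dorsal skin of db/db mice, a diabetic strain, at 14 weeks of age, which were grown with serum and then kept without it for 2 days before collection. The strain label nevertheless reads C57BL/6 for all libraries, and cells of both groups were at passage 0 to 1. Cell type, mouse strain, age and medium differed together and cannot be told apart, and the labels do not say how many animals a culture came from. The question was how the small RNA content of the 2 kinds of exosome differs. In such bulk libraries fewer vesicles of a kind and less RNA per vesicle cannot be told apart either.

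U snRNAs are short, abundant nuclear RNAs that form the core of the spliceosome. U1 pairs with the 5′ splice site, U2 with the branch point, and U5 and U6 act at the catalytic centre, while U11 and U12 take the places of U1 and U2 in the minor spliceosome, which removes a rare class of introns. Most U snRNAs carry a ring of Sm proteins on a short uridine-rich site. Mammalian genomes hold many copies and pseudogenes of U1, U2 and U6, so reads of these RNAs can match many genes.

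The sequences of members that carry the results below are given 5′ to 3′ as DNA letters from the GENCODE M21 transcripts (GRCm38), because the copies that reads can be divided among differ by few bases. Capitals mark the Sm-like letters ATTTNTNG or ATTTNTG, which overlap each other.
Rnu1a1: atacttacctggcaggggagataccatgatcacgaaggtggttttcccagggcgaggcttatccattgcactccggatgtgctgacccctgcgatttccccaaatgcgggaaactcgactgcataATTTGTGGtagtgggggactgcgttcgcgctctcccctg
Rnu1b1: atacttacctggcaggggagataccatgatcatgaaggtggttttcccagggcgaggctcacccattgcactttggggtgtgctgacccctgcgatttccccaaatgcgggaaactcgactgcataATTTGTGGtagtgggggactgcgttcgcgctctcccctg
Gm22126: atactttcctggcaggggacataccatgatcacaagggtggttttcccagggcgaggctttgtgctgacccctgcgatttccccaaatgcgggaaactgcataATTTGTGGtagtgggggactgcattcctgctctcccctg
Rnu2-10: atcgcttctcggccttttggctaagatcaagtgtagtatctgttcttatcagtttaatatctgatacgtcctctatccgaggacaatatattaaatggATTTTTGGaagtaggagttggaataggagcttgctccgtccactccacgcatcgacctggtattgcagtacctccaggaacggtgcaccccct
Gm22970: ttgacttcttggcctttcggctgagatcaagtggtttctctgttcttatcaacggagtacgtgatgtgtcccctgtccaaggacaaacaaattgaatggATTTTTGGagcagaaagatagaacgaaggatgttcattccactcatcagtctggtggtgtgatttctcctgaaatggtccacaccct
Rnu11: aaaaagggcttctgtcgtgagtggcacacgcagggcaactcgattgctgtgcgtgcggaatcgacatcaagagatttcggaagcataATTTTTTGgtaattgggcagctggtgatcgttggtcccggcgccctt
Rnu12: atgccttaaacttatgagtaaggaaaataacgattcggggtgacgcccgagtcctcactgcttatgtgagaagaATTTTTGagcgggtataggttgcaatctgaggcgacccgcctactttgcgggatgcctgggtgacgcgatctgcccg
Rnu7: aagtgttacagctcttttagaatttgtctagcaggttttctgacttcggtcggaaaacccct

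The Sm-like letters stood in 10 of the 13 members, all but Rnu6, Rnu6-ps2 and Rnu7, and in 21.9% of the 1370 other snRNA transcripts and 4.84% of 1507 snoRNA transcripts. On the opposite strand they stood in 0 members and in 14.9% of the other snRNA transcripts. U6 is known to bind a different ring, of LSm proteins, and U7 an altered Sm ring. The letters ACTTACCTG, with which U1 pairs with the 5′ splice site, stood in the 4 members named Rnu1 and in 3.72% of the other snRNA transcripts. Gm22126 was 82.3% identical to Rnu1a1 over its length and differed from it within those letters by A7T, counting from the 5′ end of Rnu1a1. The letters GTAGTA, with which U2 pairs with the branch point, stood in Rnu2-10 only among the members, and in 3.65% of the other snRNA transcripts. Gm22970 was 69.1% identical to Rnu2-10 and did not hold them. On the opposite strand both sets of letters stood in 0 members.

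Most U1 and U2 letters are not particular to a single gene. All 20-base words of Rnu1a1, Rnu1b1, Rnu1b2, Rnu1b6, Rnu2-10 and Rnu6 (100% each) also occurred in another annotated snRNA, against 88.6% for Rnu12, 87.6% for Rnu5g, 41.9% for Rnu7, 38.3% for Rnu11 and 34.1% for Gm22126. Gm22970 shared 0% of its 20-base words with any annotated transcript of another gene, on either strand, and at most 14 bases in a row with Rnu2-10. Rnu1b1 and Rnu1b2 were identical. At 90% identity or more over the whole length, a limit chosen after the data were seen, 34 snRNA rows resembled a named U1 member, 14 Rnu2-10, 8 Rnu5g, 306 a U6 member and 4 Rnu12, while Rnu7 and Rnu11 resembled only themselves. These sets are called families here. How the deposited counts divided reads that match several copies is not given in the sources used here, so single rows of U1, U2, U5 and U6 are uncertain, and family sums are given beside them.

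Reads assigned to annotated RNAs numbered 9894485 to 11149046 in ESC and 6914504 to 8691350 in Fb libraries, and 3 reads, taken as the floor of detection, stood for 0.269 to 0.434 CPM (reads per 1e+06 assigned reads). Intervals and floors cover counting error only, since reads carry no molecular identifiers. Reads outside tRNA rows made up 20.1% to 21.3% of assigned reads in ESC and 10.4% to 19.5% in Fb libraries. Fb replicate 1 stood apart: over 2915 RNAs its log2 levels correlated at 0.62 and 0.73 with Fb replicates 2 and 3, against 0.89 between those and 0.91 to 0.93 among ESC libraries, given as a description. As a check of the labels, 6 epithelial miRNAs together held 5.73% to 7.24% of miRNA reads in ESC and 0.595% to 1.32% in Fb libraries, and 5 mesenchymal miRNAs 0.0128% to 0.0209% and 9.99% to 16.3%. The 4 blood miRNAs held up to 0.0302% in ESC and up to 1.07% in Fb libraries, with miR-223-3p and miR-142a-3p among those listed at 0 throughout a group. The part of such cells in the snRNA results was not tested.

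Members as named took far more of the reads of ESC exosomes. They held 1.23%, 1.25% and 1.17% of assigned reads in ESC replicates 1 to 3, and 0.00821%, 0.00563% and 0.00638% in Fb replicates 1 to 3. The mean was 1.22% ± 0.0452 (SD, n = 3) in ESC and 0.00674% ± 0.00133 (SD, n = 3) in Fb, a ratio of 180. No test is given for this sum, since Gm22970, chosen for its abundance, held 48.2% to 69.2% of it in ESC libraries. Without Fb replicate 1 the ratio was 203. Over reads outside tRNA rows it was 119, and over reads outside both tRNA and mature miRNA rows 335. Without Gm22970 and Gm22126, which had been chosen for their abundance, the rows named Rnu gave 0.521% ± 0.149 and 0.00593% ± 0.00106 (SD, n = 3 each), a ratio of 87.9. Every ESC library lay above every Fb library (exact two-sided permutation p = 0.1, the smallest that 3 against 3 libraries allow). With all family copies and these Gm rows counted, the shares were 3.15% ± 0.251 and 0.264% ± 0.0373 (SD, n = 3 each) and the ratio fell to 11.9, since most U snRNA reads of Fb exosomes were assigned to copies that carry no Rnu name.

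Of the 13 members, 8 averaged at least 10 reads over the 6 libraries, and the other 5 (Rnu1b2, Rnu1b6, Rnu2-10, Rnu6 and Rnu6-ps2) had at most 1.001 reads in any library, under the floor. The same 8 passed the count filter of the test across all RNAs. In edgeR's quasi-likelihood fit of 2999 RNAs, with p-values adjusted over all of them by Benjamini and Hochberg, 4 of these 8 were higher in ESC (Rnu1a1, Rnu1b1, Gm22970 and Gm22126) and 0 in Fb exosomes. Of all RNAs tested, 11.8% were called, 3.63% as higher in ESC and 8.2% as higher in Fb. The 4 members without a call in edgeR had an unadjusted p of at least 0.05, and DESeq2 also called 4 of the 8, all in ESC. Without Fb replicate 1 edgeR called 3 in ESC and 1, Rnu5g, in Fb. These counts, and those in CPM and the median that follow, are a description. Abundance chose both Gm rows, and Rnu1a1, Rnu1b1, Rnu5g and Gm22126 would not have passed the count filter without their ESC reads. In CPM 7 of the 8 were higher in every ESC library, against 22.3% of all RNAs tested and 23% of those outside tRNA rows. Rnu12 overlapped, and 0 were higher in every Fb library, against 8.87% of all RNAs. The median log2 fold change of the 8 was 1.92, and that of all RNAs 0.07. Setting Rnu1a1 and Gm22126, under the floor in Fb, to their lower bounds could not move the median of the 8. Both bounds stayed above the middle rows. When any ESC library or Fb replicate 3 was left out, edgeR called 0 of the 8 and 0 of all RNAs, although 4 of the 8 and 560 to 625 of all RNAs had an unadjusted p under 0.05.

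**Figure D1:**
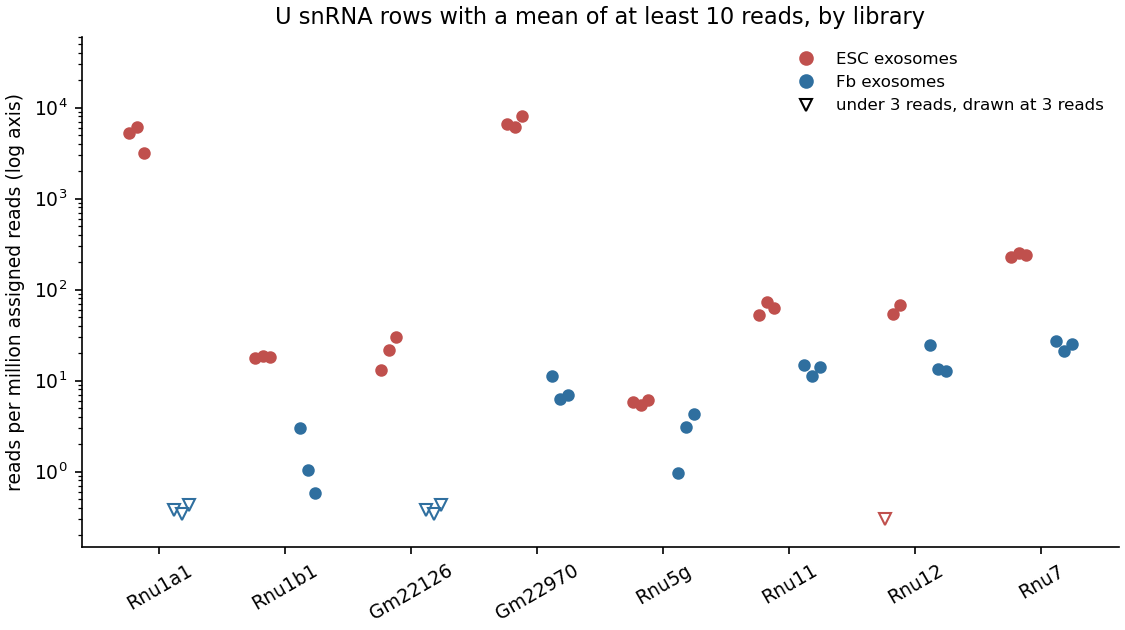
CPM (log axis) of the 8 members with a mean of at least 10 reads, with 1 point per library. Open triangles stand for fewer than 3 reads and are drawn at 3 reads, as for Rnu1a1 and Gm22126 in all Fb libraries and Rnu12 in ESC replicate 1. Rnu7 and Rnu11 are separate between the groups, and Rnu12 is low in only that ESC library.

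For U1 the result depended on the copies counted, and whether this follows from the division of reads was not tested. Rnu1a1 (ENSMUSG00000095969.1, chromosome 11, 87422867 to 87423030, plus strand, within an intron of Tex14) had 52404, 67671 and 32901 reads in ESC replicates 1 to 3 and at most 0.0578 in an Fb library. Its ESC mean was 4846 ± 1500 CPM (SD, n = 3), at least 12594-fold higher than the floor of 3 reads per Fb library. The row passed the count filter only through its ESC reads, so its edgeR adjusted p of 0.0140 is a description and not a test. Leaving out any ESC library or Fb replicate 3 raised that edgeR adjusted p to between 0.0510 and 0.0728. Rnu1b1 (chromosome 3, 96359953 to 96360117, minus strand, intergenic) belongs to U1b, the variant known from embryonic mouse tissue. It had 174, 209 and 191 reads in ESC and 24.1, 9.07 and 4.03 in Fb libraries. The groups did not overlap, at 18.2 ± 0.592 CPM and 1.55 ± 1.29 CPM (SD, n = 3 each; log2 fold change 2.36, SE 0.67, edgeR adjusted p = 0.0470). Rnu1b1 too passed the count filter only through its ESC reads, so its edgeR call is a description and not a test. That call was lost with limma-trend (limma adjusted p = 0.0509), without tRNA rows (edgeR adjusted p = 0.0559), with the replicate number as a block (edgeR adjusted p = 0.0879) and when any library but Fb replicate 2 was left out (edgeR adjusted p up to 0.232). Over its 15 alternatives, sums over copies included, the adjusted p ran from 3.00e-04 to 0.827 (edgeR, DESeq2 or limma). The remaining U1 members, Rnu1b2 and Rnu1b6, held up to 1.001 reads.

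The U1 family as a whole was much less unequal. Its shares of assigned reads were 0.754%, 1.11% and 0.554% in ESC and 0.158%, 0.109% and 0.167% in Fb replicates 1 to 3, a ratio of 5.58 against 3110 for the named U1 rows. The latter rests on 24.2, 9.44 and 4.05 Fb reads and was 5821 without Fb replicate 1. Every ESC library still lay above every Fb library (exact permutation p = 0.1, unchanged by adjustment over the 7 families). Fitted as a single row in place of its copies, the U1 family did not pass (log2 fold change 0.72, SE 1.24, edgeR adjusted p = 0.827).

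The leading U1 copy changed between libraries. Rnu1a1 held 70.3%, 54.4% and 57.3% of the family's reads in ESC replicates 1 to 3 and at most 0.000612% in an Fb library. In Fb replicate 1 the copy Gm22513, which differs from Rnu1a1 by the single substitution T60C, held 92.0% of the family. In Fb replicates 2 and 3 it held 12.5% and 29.1%, and Gm22042, named after its values were seen and 98.8% identical to Rnu1b1, held 83.4% and 66.3%. Gm22042 held 0.520% to 0.807% in ESC libraries and 1.13% in Fb replicate 1. Its reads numbered 388, 646 and 463 in ESC and 142, 7877 and 7679 in Fb replicates 1 to 3. In CPM it was thus above every ESC library in Fb replicates 2 and 3, the reverse of Rnu1b1, and below them in Fb replicate 1. So even libraries of the same group disagreed on the copy that received the reads.

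**Figure D2:**
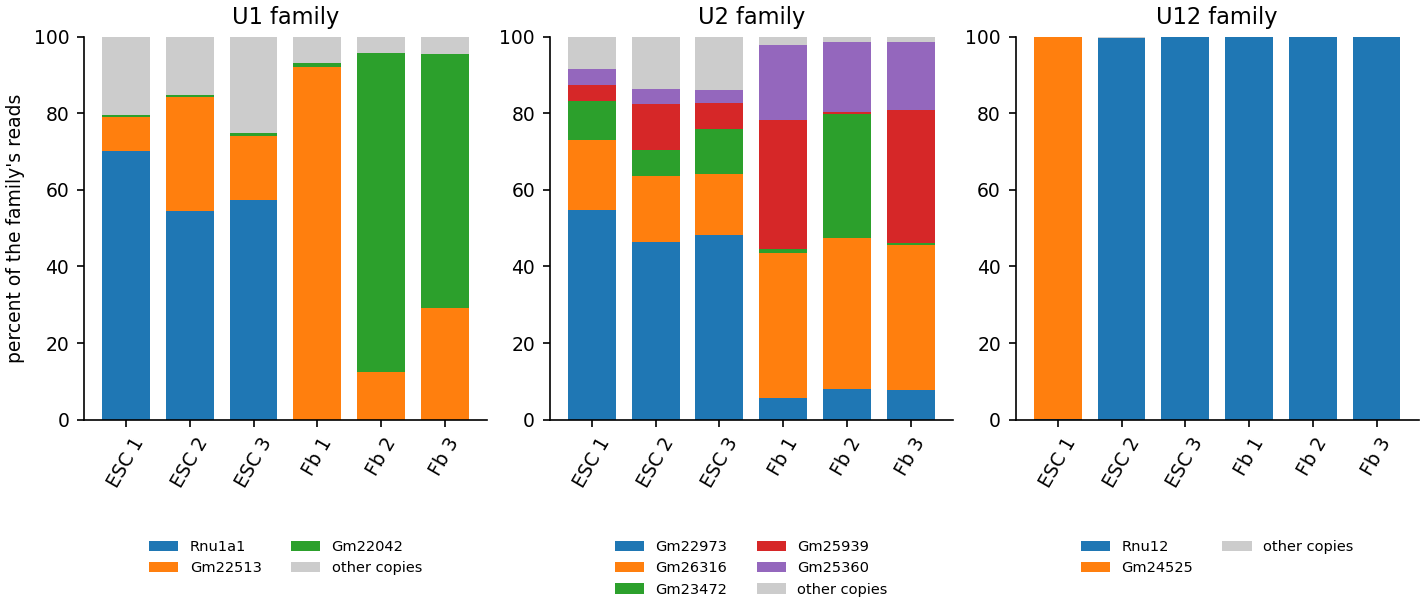
Percent of the reads of the U1, U2 and U12 families (copies of at least 90% identity) held by each copy, with 1 bar per library adding up to 100. Rnu1a1 leads in the ESC libraries with 70.3%, 54.4% and 57.3%, Gm22513 in Fb replicate 1 and Gm22042 in Fb replicates 2 and 3, while ESC replicate 1 alone has its U12 reads on Gm24525.

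Almost no reads carried the U2 name. Rnu2-10 (chromosome 11, 101658238 to 101658428, plus strand, intergenic) had at most 0.103 reads in any library. Its family, in contrast, held 1.41%, 1.45% and 1.95% of assigned reads in ESC and 0.121%, 0.105% and 0.107% in Fb replicates 1 to 3, a ratio of 14.4 (exact permutation p = 0.1, unchanged by adjustment over the 7 families). The family did not pass in the single-row fit (1.99 on the log2 scale, SE 1.33, edgeR adjusted p = 0.450). Gm22973, 95.3% identical to Rnu2-10, held 54.8%, 46.5% and 48.2% of the family in ESC but 5.67%, 7.94% and 7.65% in Fb libraries. Gm26316, which is 99.5% identical, held 16.1% to 18.3% and 37.9% to 39.5%.

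Gm22970 (ENSMUSG00000065238.1, chromosome 14, 99773623 to 99773808, minus strand, in an intron of the unclassified transcript Gm37093) had the highest mean CPM of the members in ESC exosomes, though Rnu1a1 was higher in ESC replicate 2, and in Fb exosomes it lay below Rnu7, Rnu11 and Rnu12. It had 65852, 67501 and 83673 reads in ESC and 89.6, 54.1 and 48.0 in Fb replicates 1 to 3. This corresponded to 6926 ± 1033 CPM and 8.13 ± 2.69 CPM (SD, n = 3 each), a ratio of 852, given without a test because abundance chose the row. The values were fractional in all 6 libraries, although its sequence shares no 20-base word with another annotated gene. Gm22126 (chromosome 13, 35662135 to 35662276, plus strand, within an intron of Cdyl), the U1-like RNA with the A7T difference, had 128, 241 and 315 reads in ESC replicates 1 to 3 and at most 0.00564 in an Fb library. Against the floor of 3 reads per Fb library its ESC mean was at least 56.3-fold higher.

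Per length, Gm22970 and Rnu1a1 stood far above the other members in ESC exosomes. Their mean levels were 37234 and 29549 RPKM (CPM per kilobase), and their order was not the same in every library, with Rnu1a1 higher in ESC replicate 2. Rnu7 came next at 3870 RPKM, followed by Rnu11 at 464, Rnu12 at 270, Gm22126 at 153, Rnu1b1 at 111 and Rnu5g at 50.2 RPKM. This order of means was not kept in ESC replicate 1. There Rnu12, at 0.335 RPKM, was below all of these, and Gm22126 (91.0) was below Rnu1b1 (107). In Fb exosomes Rnu7 led at 398 RPKM, and Rnu12 (112) and Rnu11 (99.3) overlapped between libraries.

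Rnu7 had whole numbers in all 6 libraries (within 1e-06) and no other snRNA row of at least 90% identity. All of its 20-base words (100%) nevertheless occurred in another annotated gene, when genes outside the snRNA class are counted too. It lies on chromosome 6 (124741225 to 124741286, minus strand) inside an exon of Grcc10 on the same strand, so reads of that mRNA cannot be told apart from it. It had 2256, 2809 and 2488 reads in ESC and 220, 186 and 174 in Fb replicates 1 to 3. The groups were separate, at 239.9 ± 11.97 CPM and 24.7 ± 3.09 CPM (SD, n = 3 each), a ratio of 9.72 (exact permutation p = 0.1, 0.175 after adjustment over the 7 types). In the fit across all RNAs it did not pass with TMM factors (1.47 on the log2 scale, SE 0.97, edgeR adjusted p = 0.443) and passed with library totals alone (3.27, SE 0.66, edgeR adjusted p = 0.00860). Over 15 alternatives its adjusted p ran from 0.00860 to 0.709 (edgeR, DESeq2 or limma).

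Of the minor spliceosome RNAs, Rnu11 had a larger share of assigned reads in every ESC library and Rnu12 overlapped. Over reads outside tRNA rows their sum overlapped too (exact permutation p = 0.2), through ESC replicate 1, where Rnu12 had 0.5 reads, against Fb replicate 1. Rnu11 alone stayed separate under that scaling, at 0.0254% to 0.0359% in ESC and 0.00574% to 0.0142% in Fb libraries. The U12 family stayed separate too. Rnu11 lies on chromosome 4 (132270080 to 132270213, minus strand), opposite an exon of the lincRNA Gm28872, whose row held at most 2.52 reads. All 20-base words of Rnu11 (100%) occurred in another annotated gene, on either strand, when genes outside the snRNA class are counted too. Its values were whole numbers in only 1 library. RefSeq lists mir-801 among its older names. It had 518, 804 and 644 reads in ESC and 118, 97 and 97 in Fb replicates 1 to 3, which is 62.2 ± 9.92 CPM and 13.3 ± 1.89 CPM (SD, n = 3 each), a ratio of 4.67 with separate groups (exact permutation p = 0.1, and 0.175 after adjustment). It did not pass across all RNAs (log2 fold change 0.43, SE 0.86, edgeR adjusted p = 0.853).

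Rnu12 (chromosome 15, 83149644 to 83149794, plus strand, intergenic) had 607 and 705 reads in ESC replicates 2 and 3 and 197, 116 and 88 in Fb replicates 1 to 3, but only 0.5 in ESC replicate 1. That library had 590.5 reads on Gm24525 instead, a copy named after its values were seen, which held at most 0.00662 reads in every other library. The copies differ by C11A, G16A, C31T, G113A, G137A and C150A, counted from the 5′ end of Rnu12. Summed over the family, U12 had a share of 0.00598%, 0.00547% and 0.00680% in ESC and 0.00247%, 0.00133% and 0.00127% in Fb libraries, so the groups were separate with a ratio of 3.60. For the single row they overlapped, with a ratio of 2.41 (exact permutation p = 0.4). Neither the row (log2 fold change -0.35, SE 1.51, edgeR adjusted p = 0.947) nor the family (0.22, SE 0.82, edgeR adjusted p = 0.936) passed.

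U5 and U6 were low. Rnu5g had 57.9, 60.7 and 64.0 reads in ESC and 7.81, 26.7 and 30.1 in Fb replicates 1 to 3. The means were 5.82 ± 0.368 CPM and 2.80 ± 1.70 CPM (SD, n = 3 each), and no Fb library reached an ESC library (exact permutation p = 0.1, and 0.175 after adjustment), but over reads outside tRNA rows they overlapped. The sign of its fitted fold change depended on the scaling, with -1.04 (SE 0.92, edgeR adjusted p = 0.594) in the test above and 1.04 (SE 0.91, edgeR adjusted p = 0.647) with library totals alone. Without Fb replicate 1 it was called higher in Fb (-1.66, edgeR adjusted p = 0.0284), and over 15 alternatives its adjusted p ran from 0.0284 to 0.934 (edgeR, DESeq2 or limma). The U5 family was at 0.00565% ± 0.000725 and 0.00188% ± 0.000517 of assigned reads (SD, n = 3 each), a ratio of 3.01. U6 had few reads in spite of its many copies: all 306 rows of its family together had 27.1, 27.3 and 26.0 reads in ESC and 11.02, 4.33 and 5.00 in Fb replicates 1 to 3. Outside tRNA rows the groups of the U6 family overlapped.

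**Figure D3:**
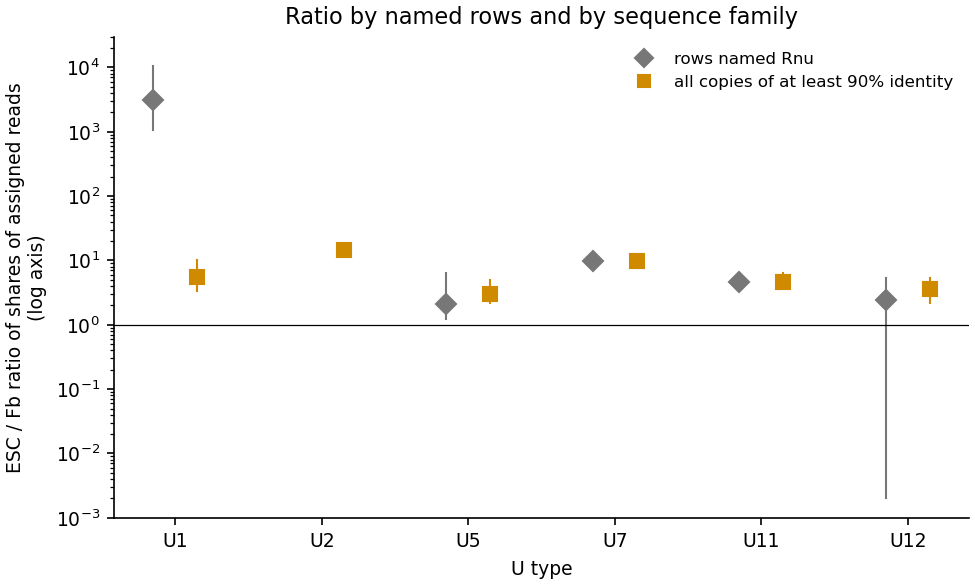
ESC to Fb ratio of mean shares of assigned reads (log axis) per U type, from the rows named Rnu and from all copies of at least 90% identity, leaving out U6 and the U2 row, which had few reads. Lines run from the lowest ESC over the highest Fb library to the highest ESC over the lowest Fb library. The U1 ratio falls from 3110 to 5.58, U7 and U11 do not move, and the lower end for the U12 row comes from ESC replicate 1.

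Among themselves the types were reweighted between the groups, and the result depends on the copies counted. U1 made up 92.8% ± 2.93 of the reads on rows named Rnu in ESC and 2.49% ± 1.64 in Fb exosomes. U7 made up 4.90% ± 1.59 and 41.9% ± 2.81 (SD, n = 3 each). Over families, U1 instead held less in ESC, at 32.9% ± 10.5 against 54.6% ± 5.03, and U2 held more, at 65.4% ± 10.5 against 42.6% ± 4.85 (SD, n = 3 each). Neither overlapped (exact permutation p = 0.1, and 0.117 after adjustment over the 7 families). U2 exceeded U1 in all 3 ESC libraries and U1 exceeded U2 in all 3 Fb libraries. The U7 share of family reads, 0.981% ± 0.0487 in ESC and 0.941% ± 0.0427 in Fb (SD, n = 3 each), overlapped (exact permutation p = 0.5), while U5, U6, U11 and U12 took larger shares in every Fb library.

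The choice of scaling mattered for every type. TMM factors, which align the bulk of RNAs, gave 109 RNAs higher in ESC and 246 in Fb exosomes with a median log2 fold change of 0.07. Library totals alone gave 205 and 151 with a median of 0.80. Relative to these medians Rnu7 was at 1.41 and 2.47, Rnu11 at 0.36 and 1.41, and Rnu5g at -1.11 and 0.23. With rows summed by type name under TMM factors, 3 of 7 rows passed (U1, Gm22970 and Gm22126), where 3.6% of all RNAs were called higher in ESC, and with families summed 2 of 9 did, the Gm rows, against 3.39%. These calls are a description, since abundance chose the Gm rows. The U1 sum was nearly all Rnu1a1 in ESC libraries, a row that passed the count filter only through its ESC reads. With families summed 0 of the 7 U types passed in edgeR (0 with an unadjusted p under 0.05, and 0 by DESeq2). With families and library totals alone, U1 (log2 fold change 2.47, SE 0.55, edgeR adjusted p = 0.0120), U2 (3.84, SE 0.52, edgeR adjusted p = 7.42e-04) and U7 (3.27, SE 0.67, edgeR adjusted p = 0.00843) passed as well, while U5 (1.57), U6 (1.56), U11 (2.21) and U12 (1.84) did not. As shares of reads outside tRNA rows, the ratios of the named rows fell to 1.59 for U5, 6.49 for U7, 3.12 for U11 and 1.52 for U12. Outside both tRNA and mature miRNA rows they rose instead, to 4.41 for U5, 18.3 for U7, 8.79 for U11 and 4.31 for U12.

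**Figure D4:**
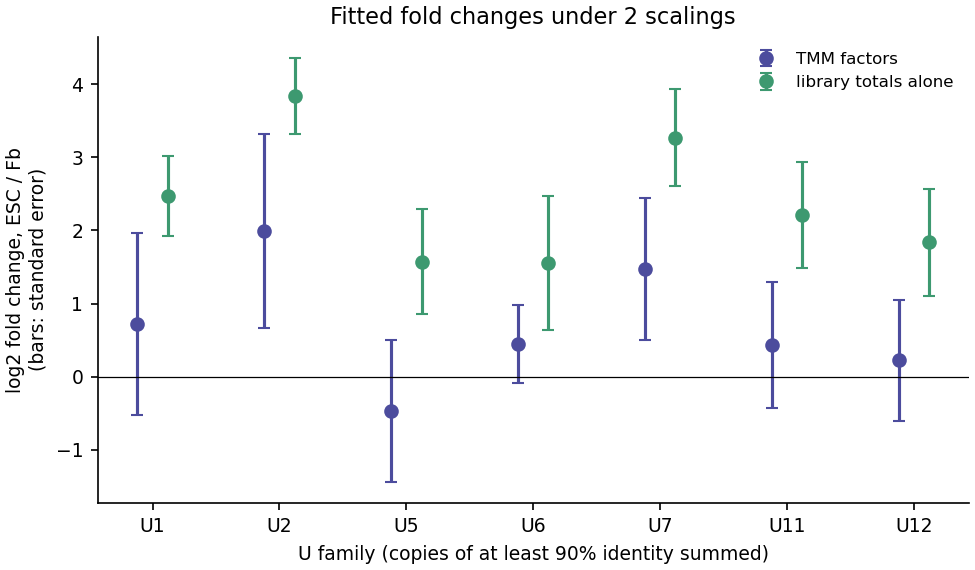
Fitted log2 fold change (ESC over Fb) of each U family with its standard error, under TMM factors and under library totals alone. Library totals place each family higher, and U5 moves from -0.46 to 1.57.

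Related RNAs differed among themselves. Of the 1370 other snRNA rows only 35 were tested, with a median log2 fold change of 2.20. Among these 35, 14 were higher in ESC and 2 in Fb, against 3.63% and 8.2% of all RNAs, and 19 did not pass. Within the U families 18 of the 35 were tested, and 5 were higher in ESC and 0 in Fb exosomes, against the same shares. These counts are a description, since a row could pass the count filter through the reads of a single group. Of 6 rows of U3 and U73 RNAs, which act in the nucleolus in ribosomal RNA maturation, 3 were tested and 2 were higher in Fb, where 8.2% of all RNAs were. Rnu3b1 did not pass (edgeR adjusted p = 0.0544), and Rnu3b2, Rnu3b3 and Rnu3b4 had at most 1.40 reads in any library. Rnu3a averaged 4.27 ± 0.516 CPM in ESC libraries and 12.4 ± 2.43 CPM in Fb libraries (SD, n = 3 each; -3.26 on the log2 scale, SE 0.81, edgeR adjusted p = 0.0281). Rnu73b averaged 0.764 ± 0.333 CPM and 7.99 ± 0.625 CPM (SD, n = 3 each; -5.31, SE 1.00, edgeR adjusted p = 0.0140). Rnu73b and Rnu3b1 passed the count filter only through their Fb reads, so the call of Rnu73b is a description and not a test. Rnu3a and Rnu73b were higher in every Fb library also in CPM, which library totals set. The 9 Scarna rows, guides that modify snRNAs in Cajal bodies, had too few reads to be tested, and together held 7.21 to 17.9 reads in ESC and 21.3 to 26.0 in Fb libraries. Rn7sk, the regulator of transcription elongation, overlapped at 2.69 ± 0.903 CPM and 2.78 ± 2.98 CPM (SD, n = 3 each).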

How the data were processed

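Small RNA libraries of exosomes were built with the CleanTag kit and size-selected from 140 to 300 bp, per the labels' protocols. Each deposited table holds estimated counts, reads per annotated RNA. FastQC, cutadapt and build GRCm38 are named in the submitters' processing notes. The aligner, counter, strand setting and treatment of multiply matching reads have no entry in the sources used here (not given).

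Groups came from the titles. Exact permutation tests (two-sided, scipy 1.17.1) compared shares. Estimated counts were rounded and fitted with edgeR 4.0.16 in R 4.3.3 (TMM, filterByExpr with a minimum count of 10 and total of 15, adjusted p of 0.05). The alternatives used DESeq2 1.42.0, limma 3.58.1 (prior count 2), other scalings and filters, the replicate number as a block, and each library left out. edgeR was tested on simulated data. Identity is 1 minus edit distance over the longer length (edlib). Positions and classes came from GENCODE M21, which named all 13 members. The labels call the libraries biological replicates but tie none to an animal. The p-values thus reflect library spread, which may be technical.

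The members and lists were chosen with earlier results of these data known. The text gives values for each U type, each Gm row and members with a mean of at least 10 reads, and up to 3 rows of each related list by reads. The sequence of Rnu5g is not reported here.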

Additional observations from a re-analysis of the deposited data

How the results depend on the processing

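Alternative values for the U snRNA share, and for the shares and makeup of U1, U5, U7, U11 and U12, were compared by sign only. Their exact p cannot reach 0.05 in this design. A kept sign does not mean that the groups stayed separate, since those of the U5 share overlapped outside tRNA rows. Of 117 such values, 112 kept their direction. The exceptions were the U12 share with the replicate block (mean log2 ratio -1.49, exact paired permutation p = 1, which rests on ESC replicate 1) and the makeup, where summing copies, added after the data were seen, turned the ESC minus Fb difference of U1 to -21.7 percentage points at 90% and -20.7 at 80% identity, and that of U7 to 0.0406 and 0.0277. Of the members, 2 of 8 passed with the replicate block, and 0 to 4 when a library was left out. The 355 calls over all RNAs became 179 with the replicate block, 541 with DESeq2, 697 with no count filter and 0 to 591 with a library left out, the latter without Fb replicate 1, which stood apart. By type, 0 to 4 passed when a library was left out, 1 without Fb replicate 3, and 4 without Fb replicate 1, where U5 passed on the Fb side (log2 fold change -1.68, edgeR adjusted p = 0.0273). With copies summed, library totals alone gave 5 at either identity and the replicate block 1. Signs turned for Rnu5g with library totals alone (1.04) and for Rnu12 with library totals alone (1.26), upper-quartile factors (0.056), no count filter (0.13) and copies summed (0.22 at either identity). With a library left out, Rnu11 ranged from -0.039 to 1.08 and Rnu12 from -0.98 to 0.40. The cause of these changes was not tested. The numbers did not pair the libraries: deviations of same-numbered libraries correlated at -0.0028, 0.082 and -0.052 over 2915 RNAs, and not every library correlated best with its own number. Leaving out 1 library leaves 2 in a group, and with fewer samples the test has less to estimate the spread from. Low Fb reads limit U6 and Rnu5g, and low reads in both groups the Scarna rows.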

Other observations

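Within the U2 family 2 copies changed places between Fb libraries. Gm23472 held 1.04% of the family's reads in Fb replicate 1, 32.3% in replicate 2 and 0.613% in replicate 3, and Gm25939 held 33.7%, 0.672% and 34.7%, so that their sum varied little while each copy did not. In ESC libraries Gm23472 held 6.80% to 11.6% and Gm25939 4.21% to 11.99%. Both were named after their values were seen and are 99.5% and 98.4% identical to Rnu2-10. Gm25360, at 97.9% identity, was steadier, with 17.7% to 19.5% in Fb and 3.47% to 4.17% in ESC libraries. In the U5 family Gm25313 and Gm25099, also named after their values were seen, held more reads than Rnu5g in every library.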
